A study of Mus musculus with 2 samples.

Results

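Complement transcripts of the injured thalamus were examined through 9 genes, *C1qa*, *C1qb*, *C1qc*, *C4b*, *C3*, *Cfb*, *Cfp*, *C3ar1* and *C5ar1*, which were picked by symbol from the 33696 genes of the single-cell count matrices. All 9 were found in both libraries. The study asked what becomes of thalamic microglia after cortical damage when CD9, a tetraspanin of the cell surface, is blocked. Both groups were C57B6/J mice with cortical ablation injury (CAI), and both received repeated antibody through a cannula in the thalamus from day 7 to day 19 at 1.0 µg/µl, either a control Ab (normal rat IgG) or an anti-CD9 Ab. On day 21, CD45+ cells of the thalamus of the injured hemisphere were sorted and profiled by droplet single-cell RNA sequencing, 1 library for control Ab and 1 for anti-CD9 Ab. For thalamus samples the study pooled 4 mice, but gave no number of mice for the antibody groups. Neither group lacked the injury, the cannula or an injected antibody.

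Complement is a cascade of blood and tissue proteins that tags targets for uptake. The classical pathway starts when C1q, a complex of A, B and C chains, binds a target and lets C4 and then C3 be cleaved onto it, while factor B (*Cfb*) and properdin (*Cfp*) drive and stabilize the alternative pathway that amplifies C3 cleavage. The fragments C3a and C5a act through the receptors C3aR and C5aR1. In the brain, microglia are the main known source of C1q, and C1q and C3 are known for their part in the removal of synapses, whereas C4 is also made by astrocytes and oligodendrocytes.

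The control Ab library held 12245 barcodes and the anti-CD9 Ab library 15173, of which 7467 and 9162 passed the limits on genes and mitochondrial counts (medians of 1880 and 1419 unique molecular identifiers, UMIs). Among the kept barcodes, 18 sequences occurred in both libraries. Cells were clustered without the complement genes, and 18 of 24 clusters took a cell class name from marker genes. Microglia-like cells numbered 2051 and 915 (control Ab first, as in all pairs of values here). There were 202 and 1239 macrophage-like, 64 and 2654 neutrophil-like and 2800 and 975 T cell-like cells. None of the 12 microglia markers was at 0 in microglia-like cells and none of the 12 macrophage markers was at 0 in macrophage-like cells, in either library. The same markers had named the classes, so this is no independent check of the names. The 6 unnamed clusters held 11.2% and 26.0% of the cells. Levels are given as UMI counts per 1000000 UMIs of the class (CPM) with exact 95% Poisson intervals, and differences as the log2 ratio of anti-CD9 Ab over control Ab with an exact 95% interval. These intervals cover counting error only. No test could be run on 1 library per antibody, and antibody, pool of mice and library cannot be told apart. A lower CPM in a class can stem from fewer cells that hold the transcript or from less of it per cell.

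The region before the transcription start is shown for 4 of the genes as an anchor for the values that follow, because *C1qb* and *C1qc* differed alike between the libraries and *C3* and *Cfp* were among the genes with the clearest differences in macrophage-like cells. RefSeq promoters (GRCm38.p6) were at hand for 6 of the 9 genes. The sequences are the 250 bases upstream of the start, 5′ to 3′ on the minus strand, at chr4:136886201-136886450 (*C1qb*), chr4:136892915-136893164 (*C1qc*), chr17:57228137-57228386 (*C3*) and chrX:20931556-20931805 (*Cfp*). Capitals mark matches, on either strand, to the GAS element of interferon signalling (TTCNNNGAA), the ISRE of interferon regulatory factors, the kB motif of NF-kB, the PU.1 core (GAGGAA) and a C/EBP motif (TTGCNNAA).
C1qb: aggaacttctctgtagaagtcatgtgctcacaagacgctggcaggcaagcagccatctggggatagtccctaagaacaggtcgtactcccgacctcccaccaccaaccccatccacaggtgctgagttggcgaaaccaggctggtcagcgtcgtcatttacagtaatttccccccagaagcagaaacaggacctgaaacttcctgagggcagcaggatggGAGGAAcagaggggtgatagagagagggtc
C1qc: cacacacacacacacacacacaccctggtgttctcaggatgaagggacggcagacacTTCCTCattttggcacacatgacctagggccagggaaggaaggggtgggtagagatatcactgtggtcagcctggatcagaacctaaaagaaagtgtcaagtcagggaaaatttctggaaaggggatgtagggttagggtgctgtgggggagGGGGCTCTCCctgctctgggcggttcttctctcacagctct
C3: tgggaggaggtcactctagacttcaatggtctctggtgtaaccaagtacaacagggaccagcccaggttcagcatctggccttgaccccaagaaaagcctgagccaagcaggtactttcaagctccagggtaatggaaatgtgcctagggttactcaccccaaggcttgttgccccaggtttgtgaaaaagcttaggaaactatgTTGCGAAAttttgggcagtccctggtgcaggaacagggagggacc
Cfp: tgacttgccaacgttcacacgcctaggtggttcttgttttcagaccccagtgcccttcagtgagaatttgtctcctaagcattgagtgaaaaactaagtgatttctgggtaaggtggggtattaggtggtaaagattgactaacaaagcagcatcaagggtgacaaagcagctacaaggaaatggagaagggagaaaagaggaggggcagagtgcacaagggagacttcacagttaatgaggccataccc
The *C1qb* and *C1qc* windows each held 1 PU.1 core, *C1qc* also held 1 kB match, and *C3* held 1 C/EBP match, 38 to 45 bases before the start. *Cfp* held no match. Over 32851 promoter windows of the same length, 23.3% held the PU.1 core, 9.56% the C/EBP motif, 7.25% the kB motif, 7.02% the GAS element and 2.98% the ISRE. A match describes letters in a window, and no binding was measured here.

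The first question was which cells held each transcript. With control Ab, microglia-like cells held 84.4% of all C1q UMIs (the 3 chains summed), 71.3% of *C3*, 76.7% of *C3ar1*, 75.7% of *C5ar1*, 53.3% of *C4b* and 52.2% of *Cfb*. *Cfp* was the exception, with 38.5% of its 148 UMIs in dendritic cell-like cells and 27% in microglia-like cells. With anti-CD9 Ab, the microglia-like share was 57.7% for C1q and 59.8% for *C4b*. It was 8.81% for *C3*, 10.5% for *C5ar1*, 3.02% for *Cfp* and 2.49% for *Cfb*. Macrophage-like cells then held 88.4% of *Cfb*, 63.3% of *Cfp*, 63.2% of *C3ar1* and 53.7% of *C3*, and neutrophil-like cells held 48.5% of *C5ar1* and 21.7% of *C3*. These shares depend on the number of cells in each class as well as on the level in its cells. The macrophage-like class made up 2.71% and 13.5% of all cells kept and the neutrophil-like class 0.857% and 29%. The microglia-like class made up 27.5% and 9.99%, yet its share of *C4b* was not lower with anti-CD9 Ab. That share was 53.3% (49.2 to 57.4%) and 59.8% (55.8 to 63.8%), and the intervals overlapped. Unnamed clusters held 22.2% and 10.1% of *C4b*, astrocyte-like cells 10.9% and 3.31%, and macrophage-like cells 3.9% and 13.1%. The part of cell number in each shift was not tested.

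**Figure D1:**
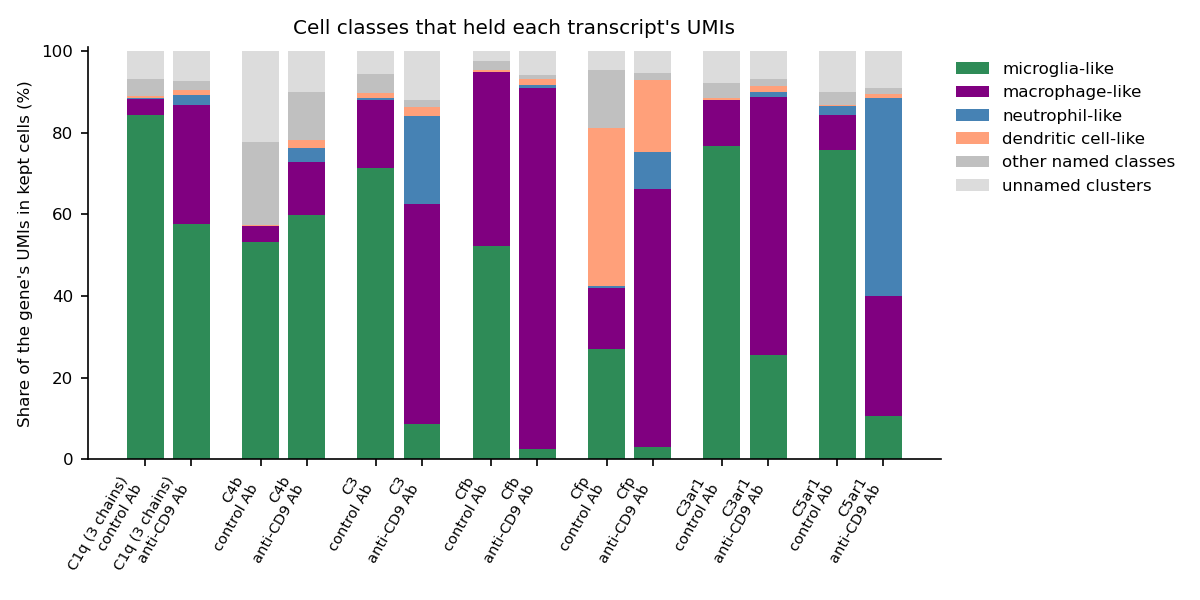
Share of each transcript's UMIs (percent, all kept cells) that lay in each cell class, with 1 bar per library. Microglia-like cells (green) held most UMIs of C1q, C3, C3ar1 and C5ar1 with control Ab, and macrophage-like cells (purple) held most of Cfb, Cfp, C3 and C3ar1 with anti-CD9 Ab.

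**Figure D2:**
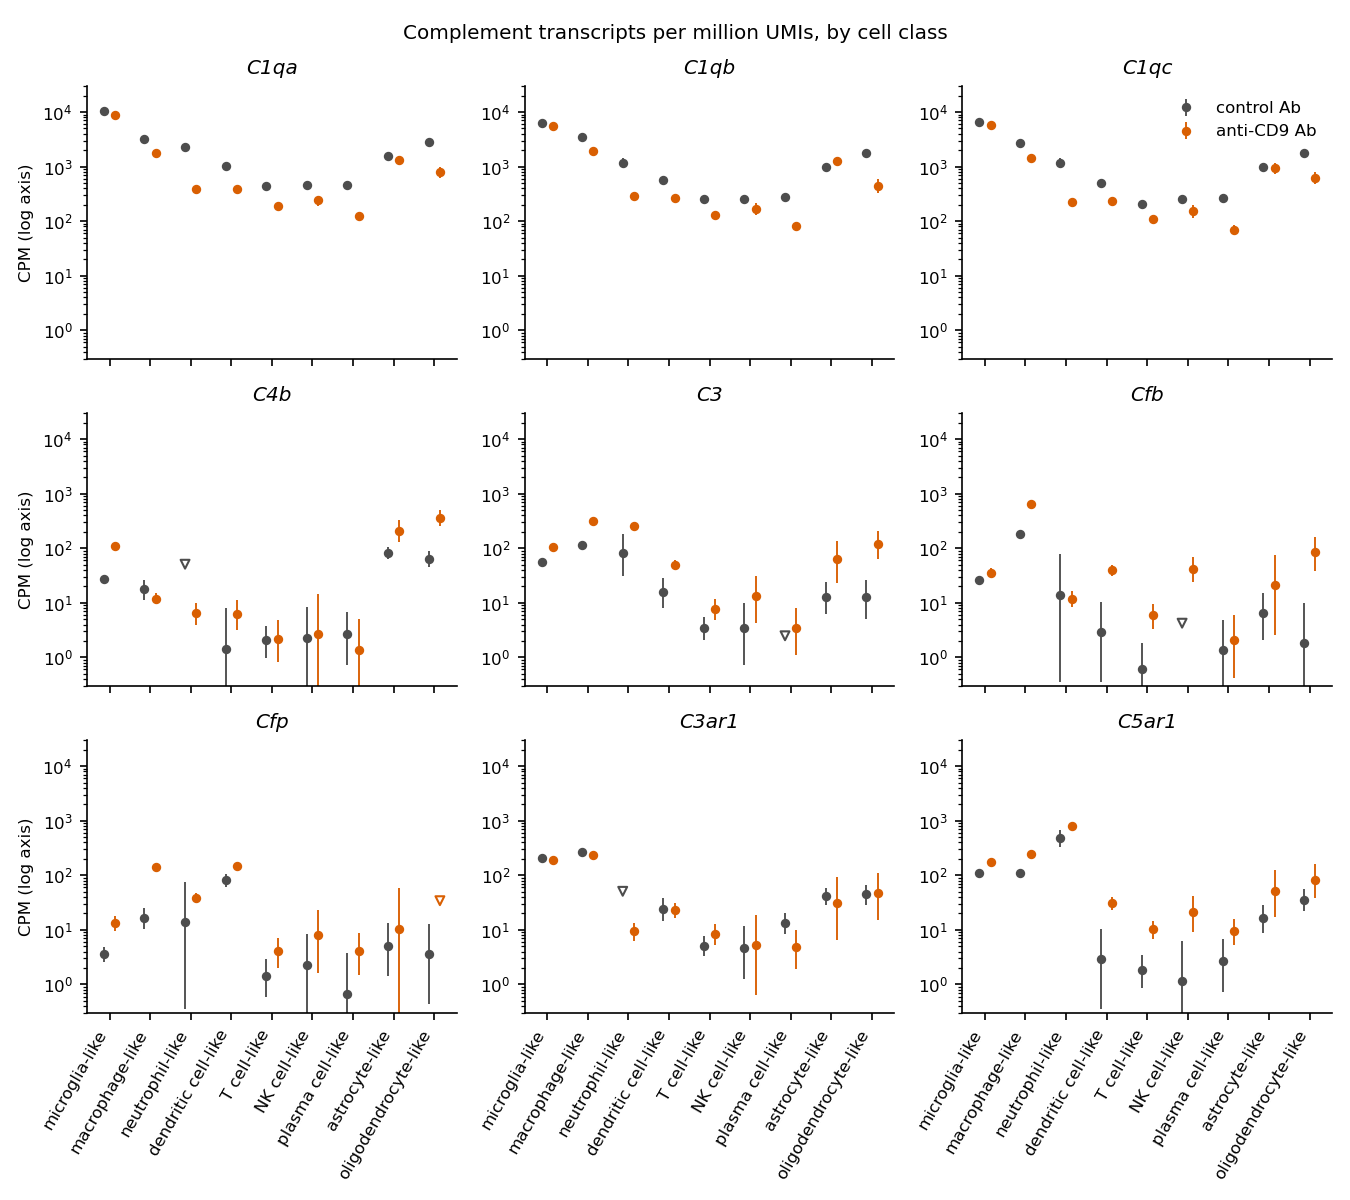
CPM of each of the 9 genes on a log axis in the 9 cell classes with at least 50 cells in both libraries, for control Ab (grey) and anti-CD9 Ab (orange), with exact 95% Poisson intervals cut at the lower edge of the axis. Open triangles mark the upper limit where a class had 0 UMIs. C1q was highest in microglia-like cells, Cfb in macrophage-like cells and C5ar1 in neutrophil-like cells.

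Transcripts of C1q, the starter of the classical pathway, remained abundant in microglia-like cells with anti-CD9 Ab. *C1qa* stood at 10638 CPM in the control Ab library (10577 to 10698, 119944 UMIs) and 8889.7 CPM in the anti-CD9 Ab library (8789 to 8992, 29484 UMIs). The other chains stood at 6335 and 5578 CPM (*C1qb*) and 6533 and 5853 CPM (*C1qc*), in the same order of libraries. The summed C1q log2 ratio was −0.21 (−0.22 to −0.20), so that the level with anti-CD9 Ab was 0.865 times that with control Ab. After each cell was thinned to 1000 UMIs, 99.5% of 1982 and 99.6% of 889 cells held a *C1qa* UMI (99.95% and 99.89% before thinning). Thinning left out 69 and 26 shallower cells. Nearly the whole class thus held the transcript in both libraries.

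Within the microglia-like class, the C1q ratio of each cluster depended on how the cells were clustered. Cluster 2 (982 and 461 cells), which had the highest homeostatic markers (mean log2 ratio of 1.11 against the other microglia-like cells), had a C1q log2 ratio of −0.05 (−0.07 to −0.03). There *C1qb* was −0.01 (−0.04 to 0.03) and *C1qc* 0.00 (−0.04 to 0.04). Cluster 6 (942 and 368 cells), with the highest mean log2 ratio of damage-associated markers such as *Spp1* and *Lpl* (1.61), had −0.26 (−0.27 to −0.24). Cluster 18, the cycling cells (127 and 86), had −0.04 (−0.08 to 0.01). In both libraries C1q was higher in cluster 6 (25995 and 21789 CPM) than in cluster 2 (18949 and 18253 CPM). These clusters were not alike in state between the libraries. In cluster 2 the summed homeostatic markers stood at 5182 and 3219 CPM and the damage-associated markers at 11008 and 3454 CPM. The summed damage-associated markers stood at 51652 and 18261 CPM in cluster 6 and 62364 and 19312 CPM in cluster 18. Their part in the C1q difference was not tested. Without integration of the libraries the order turned, with *C1qa* at 11207 and 11923 CPM in the cluster led by *Lpl*, *Spp1* and *Cst7* (999 and 106 cells). The cluster led by *Siglech* and *P2ry12* (924 and 134 cells) had 7991 and 6983 CPM. Most anti-CD9 Ab cells lay outside these clusters. A cluster led by *Ccl12* and *Cxcl13* held 49 and 582 cells and had *C1qa* at 11100.5 and 8380 CPM.

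In macrophage-like cells C1q was lower with anti-CD9 Ab, by less than 2-fold. The level was 3258 and 1799.9 CPM for *C1qa*, 3452 and 1901 CPM for *C1qb* and 2705 and 1423 CPM for *C1qc*, and the summed log2 ratio was −0.88 (−0.91 to −0.85). The thinned share of cells with a *C1qa* UMI was 65% (58 to 71.6%) of 200 cells and 45.7% (42.9 to 48.5%) of 1215 cells (84.2% and 65.6% before thinning). Macrophage-like cells were then clustered again, without the complement genes. Sub-cluster 2, led by *Spp1*, *Gpnmb* and *Fabp5* and with *Cd9*, the gene of the antibody's target, among its 10 leading genes, made up 50% and 14.2% of the class. There C1q stood at 7837 and 8605 CPM, a log2 ratio of 0.14 (0.08 to 0.19). Sub-cluster 1, led by *Plxdc2* and *Nav3* with the microglia markers *P2ry12*, *Gpr34* and *Cx3cr1* among its 10 leading genes, stood at 13270.2 and 8639 CPM. Sub-cluster 0, led by the acute-phase genes *Saa3* and *Lcn2*, held 3.96% and 33.7% of the cells and stood at 3068 CPM with anti-CD9 Ab, where control Ab gave 8 cells. With each sub-cluster weighted as with control Ab, an alternative chosen after seeing the data, the C1q log2 ratio was −0.24. Without integration of the libraries it was −0.43. Summed over the list of 12, microglia markers in macrophage-like cells were 4029 and 887 CPM, and in sub-cluster 1 they were 6859.6 and 1447 CPM. Whether RNA of microglia adds to C1q in these cells was not tested.

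C1q was also counted in cells that are no known source of it. T cell-like cells had 887 and 431 CPM, and 28.7% and 15.7% of them held a *C1qa* UMI after thinning (43.8% and 30.8% before, at median depths of 1554 and 2286 UMIs against 3160 and 3346 in microglia-like cells). Plasma cell-like cells had 1010.2 and 272 CPM. The level was higher in neutrophil-like cells (4666 and 899 CPM), where 64 cells gave 338 UMIs in the control Ab library and the summed microglia markers stood at 2098 and 446 CPM. The source of C1q UMIs in these classes was not tested. After the T cell-like level was taken off, also chosen after seeing the data, the log2 ratio was −0.19 in microglia-like and −0.86 in macrophage-like cells.

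The chains differed in ratio between classes. Each UMI marks the 3′ end of 1 molecule, so that no division by length is needed. Microglia-like cells had 1.68 (1.66 to 1.69) and 1.59 (1.56 to 1.62) *C1qa* UMIs per *C1qb* UMI. Macrophage-like cells had 0.944 (0.905 to 0.984) and 0.947 (0.923 to 0.971). *C1qc* per *C1qb* was 1.03 (1.02 to 1.04) and 1.05 (1.03 to 1.07) in microglia-like cells and 0.784 (0.75 to 0.819) and 0.749 (0.729 to 0.769) in macrophage-like cells. The class intervals did not overlap in either library, for either ratio. The lowest *C1qa* to *C1qb* ratio was in macrophage sub-cluster 2 with control Ab, 0.655 (0.611 to 0.703), and sub-cluster 1, which held microglia markers, was higher at 1.23 (1.16 to 1.3). With anti-CD9 Ab these sub-clusters had 0.822 (0.781 to 0.866) and 1.06 (1.02 to 1.1). The likeness of the macrophage-like class between libraries depended on the processing. There the log2 ratios of *C1qa* and *C1qb* were −0.14 and −0.64 without integration, and −0.27 and −0.57 at 5% mitochondrial counts. T cell-like cells had 1.72 (1.6 to 1.84) with control Ab, near that of microglia-like cells, and 1.47 (1.28 to 1.69) with anti-CD9 Ab.

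**Figure D3:**
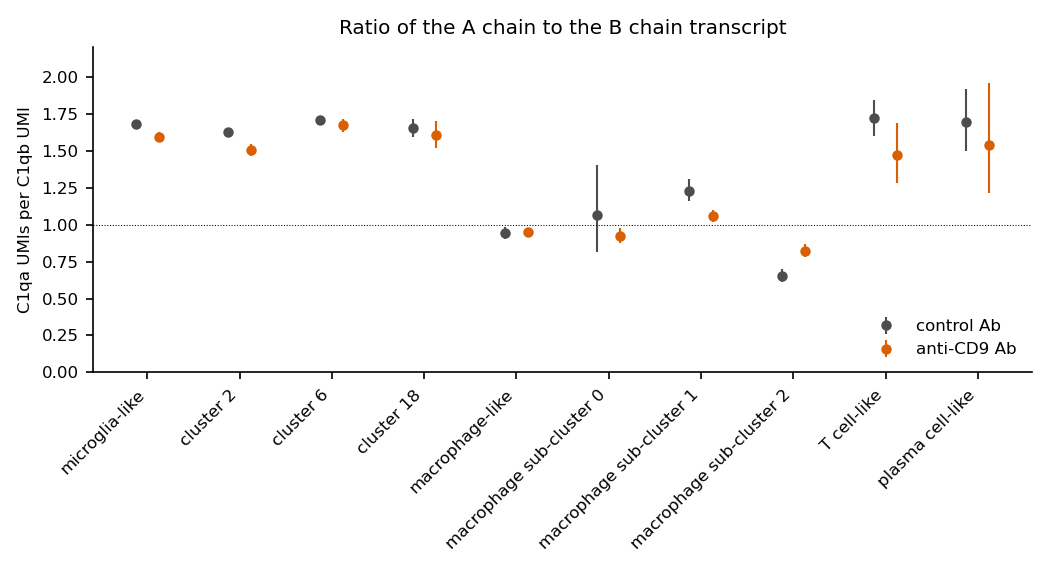
UMIs of C1qa per UMI of C1qb (points, with exact 95% intervals) in microglia-like cells and their clusters 2, 6 and 18, in macrophage-like cells and their 3 largest sub-clusters, and in T cell-like and plasma cell-like cells, for control Ab (grey) and anti-CD9 Ab (orange). Microglia-like cells lay at 1.68 and 1.59 and macrophage-like cells at 0.944 and 0.947. The dotted line marks a ratio of 1.

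*C4b*, which is cleaved after C1q binds, differed most of the 9 genes in microglia-like cells, together with *Cfp*, whose interval overlapped. It stood at 27.8 CPM in the control Ab library (24.9 to 31.1, 314 UMIs) and 109 CPM in the anti-CD9 Ab library (98.2 to 121, 362 UMIs), a log2 ratio of 1.97 (1.75 to 2.19). The ratio was 2.73 (2.34 to 3.14) in cluster 2 (19.4 and 129 CPM), 1.55 (1.23 to 1.86) in cluster 6 (32.5 and 94.8 CPM) and 1.46 (0.53 to 2.41) in cluster 18. With control Ab, *C4b* was thus higher in cluster 6 than in cluster 2. With anti-CD9 Ab the cluster intervals overlapped. Without integration *C4b* stood at 30.5 and 82.8 CPM in the *Lpl* and *Spp1* cluster and 17.7 and 38.3 CPM in the *Siglech* and *P2ry12* cluster. The anti-CD9 Ab values there rest on 40 and 14 UMIs, from 106 and 134 cells. A further cluster held 582 cells with anti-CD9 Ab and had a higher *C4b* level in that library, 135 CPM. The thinned share of microglia-like cells with a *C4b* UMI was 1.87% (1.32 to 2.56%) and 10.1% (8.22 to 12.3%) (11% and 26.9% before thinning), against 0.284% and 0.331% in T cell-like cells. Macrophage-like cells had 17.6 and 12 CPM from 23 and 79 UMIs, a ratio of −0.55 (−1.24 to 0.18) whose interval spans 0. *C4b* has a close copy in the mouse genome, *C4a*, so that reads of the pair can be split or lost in counting.

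*C3*, the central component on which all pathways meet, was higher with anti-CD9 Ab in microglia-like and in macrophage-like cells. In microglia-like cells it stood at 56 CPM in the control Ab library (51.7 to 60.5, 631 UMIs) and 105 CPM in the anti-CD9 Ab library (94.2 to 117, 348 UMIs), a log2 ratio of 0.91 (0.71 to 1.10). Cluster 6 held more of it than cluster 2 in both libraries (73.5 and 144 CPM against 22.8 and 55.5 CPM). Macrophage-like cells had 112 CPM in the control Ab library (94.8 to 132, 147 UMIs) and 322 CPM in the anti-CD9 Ab library (308 to 336, 2123 UMIs), a log2 ratio of 1.52 (1.28 to 1.77), and the thinned share of cells with a *C3* UMI was 11% (7.02 to 16.2%) and 26.7% (24.3 to 29.3%) (36.6% and 66.1% before). Both of the sub-clusters with at least 50 cells in each library showed the difference, with log2 ratios of 1.89 (1.41 to 2.39) in sub-cluster 1 and 1.29 (0.86 to 1.75) in sub-cluster 2. Sub-cluster 1 differed in microglia markers between the libraries, as given above. Predicted doublets made up 25% and 9.4% of sub-cluster 1 and 1.98% and 9.09% of sub-cluster 2. These limits apply to every gene compared within the sub-clusters. Neutrophil-like cells had 259.5 CPM with anti-CD9 Ab (856 UMIs) and 82.8 with control Ab, where 64 cells gave 6 UMIs. Summed over 12 neutrophil markers, microglia-like cells had 619 and 1143 CPM and macrophage-like cells 325 and 801 CPM, in the same direction as *C3*. T cell-like cells held little *C3* (3.5 and 7.69 CPM), and taking it off left log2 ratios of 0.89 and 1.53.

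*Cfb*, the serine protease of the alternative pathway, had its highest level of the classes compared in macrophage-like cells, although with control Ab more of its UMIs lay in the larger microglia-like class. It stood at 182 CPM in the control Ab library (159 to 206, 238 UMIs) and 635 CPM in the anti-CD9 Ab library (616 to 654, 4190 UMIs) there, a log2 ratio of 1.80 (1.61 to 2.00). The thinned share of cells with a *Cfb* UMI was 13.5% (9.09 to 19%) and 35.1% (32.5 to 37.9%) (36.6% and 67.3% before), against 0.0813% and 0.884% in T cell-like cells. Sub-cluster 0 had the highest level with anti-CD9 Ab, 1092 CPM, and its 8 cells with control Ab had 64 UMIs (1608 CPM). Within sub-clusters 1 and 2 the log2 ratios were 0.80 (0.43 to 1.19) and 1.30 (0.94 to 1.68). With the sub-clusters weighted as with control Ab the log2 ratio over the class was 0.88, below 2-fold. In cells thinned to 1000 UMIs, *Cfb* was found in 36.9% of 325 macrophage-like cells with a *C3* UMI and 34.5% of 890 without one with anti-CD9 Ab, and the 95% binomial intervals overlapped. With control Ab these were 36.4% of 22 (8 cells) and 10.7% of 178, and the intervals did not overlap (17.2 to 59.3% and 6.55 to 16.2%). In sub-cluster 0 with control Ab, thinned separately, 5 of the 8 cells held a *C3* UMI and 3 a *Cfb* UMI. The part of the mix of sub-clusters in these shares was not tested. In microglia-like cells *Cfb* stood at 25.9 and 35.6 CPM, a log2 ratio of 0.46 (0.14 to 0.77). The ratio was 0.09 once predicted doublets were left out and 0.23 after the T cell-like level was taken off.

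*Cfp*, which encodes properdin, showed the largest ratio of the set in macrophage-like cells. The level was 16.8 CPM in the control Ab library (10.5 to 25.4, 22 UMIs) and 139.8 CPM in the anti-CD9 Ab library (131 to 149, 923 UMIs), a log2 ratio of 3.06 (2.45 to 3.74). It was 3.14 (2.24 to 4.21) in sub-cluster 1 and 3.94 (2.34 to 6.26) in sub-cluster 2, the latter from 3 and 72 UMIs. Dendritic cell-like cells had 82 and 150.2 CPM, a log2 ratio of 0.87 (0.45 to 1.31). Cluster 15, which held most of these cells, had 90.4 and 204 CPM. With control Ab the *Cfp* level in dendritic cell-like cells lay above that in macrophage-like cells, and with anti-CD9 Ab the intervals of the classes overlapped. Microglia-like cells held few UMIs, 40 and 44 (3.55 and 13.3 CPM, log2 ratio 1.90 (1.25 to 2.56)), and after thinning 0.101% and 1.24% of their cells had one, against 0.203% and 0.221% of T cell-like cells. The share with control Ab was thus at background, and the *Cfp* ratio in microglia-like cells is a ratio to a level that was not told apart from it at this depth.

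**Figure D4:**
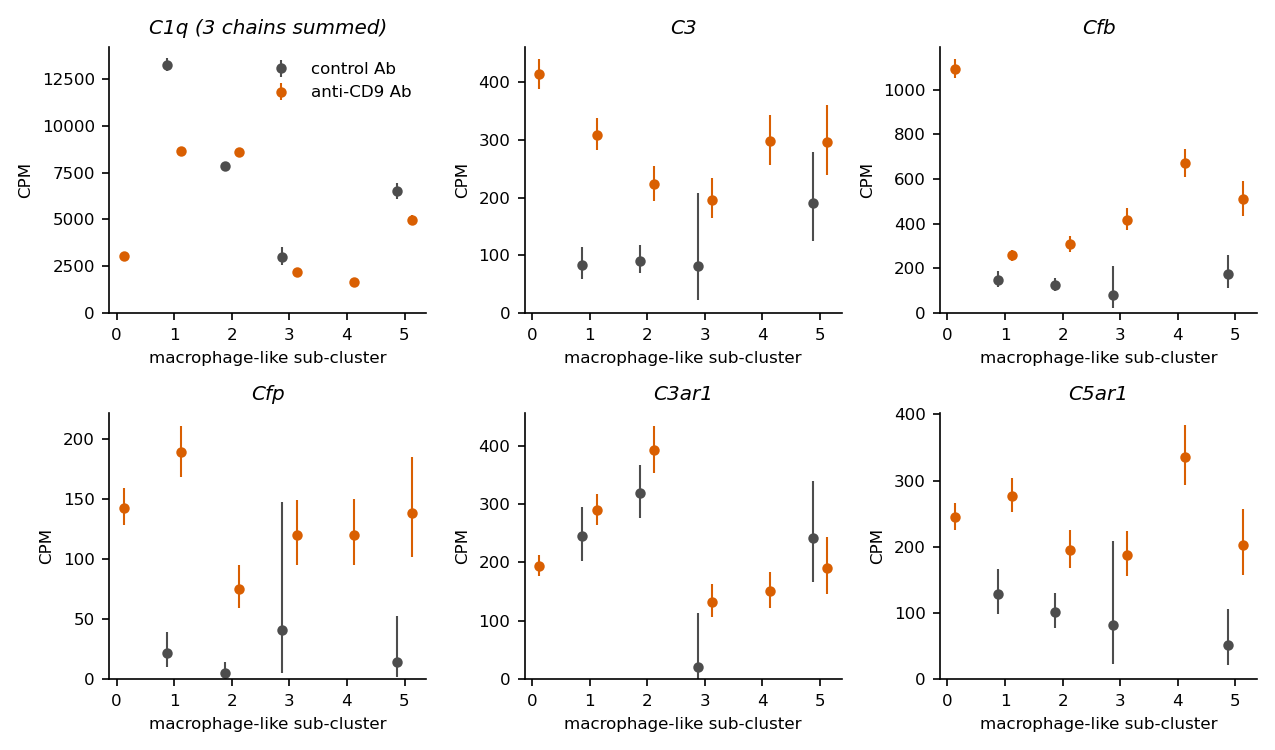
CPM of C1q (the 3 chains summed), C3, Cfb, Cfp, C3ar1 and C5ar1 in the 6 sub-clusters of macrophage-like cells, for control Ab (grey) and anti-CD9 Ab (orange), with exact 95% Poisson intervals. Points from fewer than 10 cells are left out, which removes control Ab in sub-clusters 0 and 4. With anti-CD9 Ab, Cfb was highest in sub-cluster 0 and C1q in sub-clusters 1 and 2. Sub-cluster 5 was 91.4% predicted doublets.

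The receptors behaved differently from each other. *C3ar1*, the receptor of C3a, had 211 CPM in the control Ab library (203 to 219.8, 2381 UMIs) and 189.6 CPM in the anti-CD9 Ab library (175 to 205, 629 UMIs) in microglia-like cells, a log2 ratio of −0.15 (−0.28 to −0.03), and 266 CPM in the control Ab library (239 to 295, 348 UMIs) and 236 CPM in the anti-CD9 Ab library (225 to 248, 1561 UMIs) in macrophage-like cells, a ratio of −0.17 (−0.34 to 0.00). The second interval spans 0. Within sub-clusters 1 and 2 the *C3ar1* ratios were above 0, at 0.25 (−0.05 to 0.55) and 0.30 (0.05 to 0.56), and with the sub-clusters weighted as with control Ab the class ratio was 0.29. *C5ar1*, the receptor of C5a, was higher in both classes with anti-CD9 Ab. It was also higher in dendritic cell-like cells (2.88 and 31.2 CPM), from 2 and 54 UMIs, a log2 ratio of 3.44 (1.5 to 6.5). In T cell-like cells, read here as background, it was 1.85 and 10.2 CPM, from 9 and 28 UMIs. Taking the T cell-like level off left log2 ratios of 0.61 in microglia-like and 1.14 in macrophage-like cells. Microglia-like cells had 110.4 CPM in the control Ab library (104 to 117, 1245 UMIs) and 175 CPM in the anti-CD9 Ab library (162 to 190.3, 582 UMIs), a log2 ratio of 0.67 (0.52 to 0.81), with 0.36 (0.11 to 0.60) in cluster 2 and 0.93 (0.74 to 1.12) in cluster 6. Macrophage-like cells had 109 CPM in the control Ab library (92 to 129, 143 UMIs) and 247 CPM in the anti-CD9 Ab library (235 to 259, 1629 UMIs), a log2 ratio of 1.18 (0.93 to 1.43), with 1.10 (0.71 to 1.52) and 0.95 (0.53 to 1.39) in sub-clusters 1 and 2. Neutrophil-like cells, which carry C5aR1 as a chemotactic receptor, had the highest level, 483 CPM in the control Ab library (337 to 672, 35 UMIs) and 813 CPM in the anti-CD9 Ab library (782 to 844, 2681 UMIs). Their *C3ar1* was 9.4 CPM with anti-CD9 Ab and 0 UMIs with control Ab. At the control Ab depth, 0 UMIs has an upper limit of 50.9 CPM, so the libraries could not be told apart. The neutrophil marker values given beside *C3* apply to *C5ar1* as well. The same markers stood at 601 and 712 CPM in cluster 2 and at 477 and 1726 CPM in cluster 6. Predicted doublets made up 1.93% and 2.39% of cluster 2 and 10.7% and 22.3% of cluster 6. Their part in the *C5ar1* and *C3* values of these clusters was not tested.

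By the limit of 2-fold, 2 of the 9 genes (*C4b* and *Cfp*, the latter with the limit given above) were higher with anti-CD9 Ab in microglia-like cells and 0 were lower. Over all genes with at least 50 UMIs, 411 of 11335 (3.63%) were higher and 513 of 11335 (4.53%) lower. In macrophage-like cells 4 of the 9 (*C3*, *Cfb*, *Cfp* and *C5ar1*) were higher and 0 lower. Over all genes there, 746 of 9023 (8.27%) were higher and 574 of 9023 (6.36%) lower. The median log2 ratio of the 9 was 0.46 in microglia-like cells, beside 0.02 over all genes, and −0.17 in macrophage-like cells, beside −0.01. The first of these medians is the ratio of *Cfb* alone and the second that of *C3ar1*. In microglia-like cells *Cfb* was 0.09 without predicted doublets and 0.12 without integration, so the median is no measure of a shift of the whole set. All 9 passed the minimum of 50 UMIs in both classes. *C4b* had a log2 ratio above 0 in microglia-like cells and below 0 in macrophage-like cells, where the interval spans 0, and this difference between the classes was not tested.

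**Figure D5:**
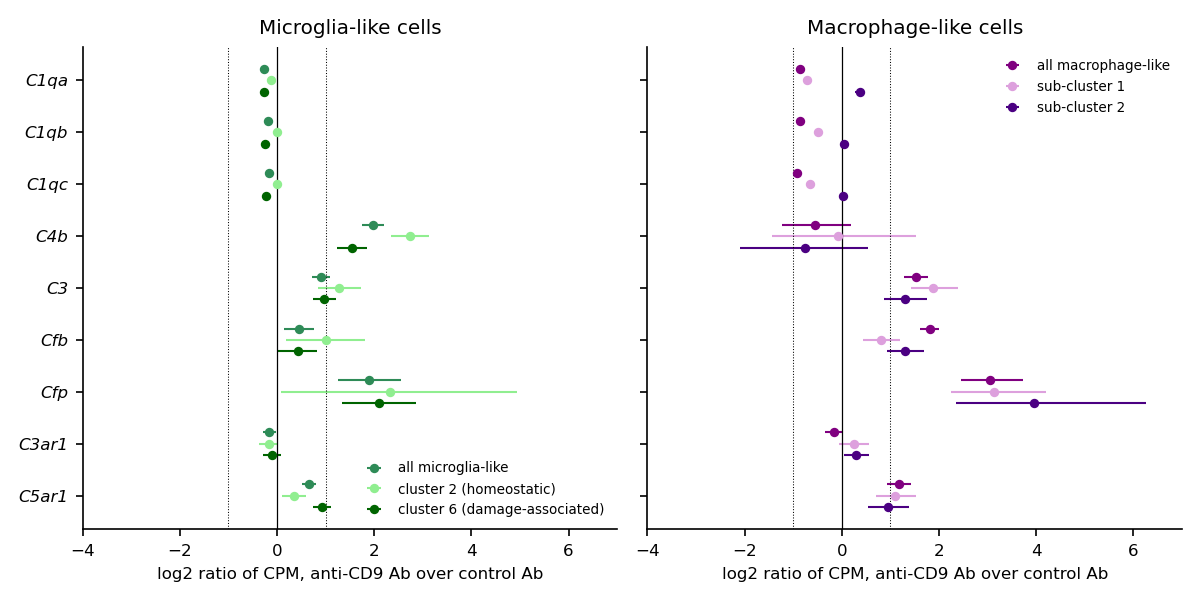
Log2 ratio of CPM, anti-CD9 Ab over control Ab, for the 9 genes in microglia-like cells with their clusters 2 and 6 (left) and in macrophage-like cells with their sub-clusters 1 and 2 (right). Bars are exact 95% intervals for counting error, and dotted lines mark 2-fold. C1q lay at or below 0 over both classes, while C3, Cfb, Cfp and C5ar1 lay above 0 in both.

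A wider list of 49 other complement genes was measured unevenly in these cells. In both classes 8 of 10 receptors and 3 of 10 regulators on membranes had at least 50 UMIs. In microglia-like cells 18 of the 49 had at least 50 UMIs, and 1 was at least 2-fold higher and 3 lower in the anti-CD9 Ab library (median −0.26 on the log2 scale), beside 3.63% higher and 4.53% lower over all genes. In macrophage-like cells 14 did, with 1 higher and 5 lower (median −0.49), beside 8.27% and 6.36%. One of these was *Cd93* (117 and 55.4 CPM), which was named after its values were seen. Of 7 genes of the terminal pathway, which forms the membrane pore, 0 reached 50 UMIs in either class, and neither did *Cfd*. Among starters, 4 of 15 were measured in microglia-like cells with 0 past 2-fold, and in macrophage-like cells *C1ra*, a C1 protease, was higher (3.82 and 12.7 CPM, 1.74 (0.46 to 3.40)), and *Colec12*, a collectin, lower (19.1 and 5.3 CPM, −1.85 (−2.63 to −1.05)). *C1ra* was also among the 3 highest in microglia-like cells, where its interval spans 0 (4.7 and 6.33 CPM, 0.43 (−0.37 to 1.18)).

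Among regulators in fluid, *Serping1*, the C1 inhibitor, was the highest in microglia-like cells (2.66 and 6.03 CPM, 1.18 (0.29 to 2.04)), and *Clu* the lowest (6.03 and 0.905 CPM, −2.74 (−5.05 to −1.13), the second value from 3 UMIs). T cell-like cells had *Clu* at 9.06 and 1.1 CPM, above the microglia-like level in both libraries. The *Clu* ratio was thus not told apart from background. Among regulators on membranes, *Csmd3* was lower in both classes. Microglia-like cells had 1597 and 563 CPM, a log2 ratio of −1.50 (−1.57 to −1.44). Macrophage-like cells had 192 and 3.18 CPM, a log2 ratio of −5.92 (−6.64 to −5.28), the second level from 21 UMIs. T cell-like cells had 11.1 and 5.86 CPM, so the second macrophage-like level was not above background. Whether RNA of microglia adds to *Csmd3* in macrophage-like cells was not tested. *Csmd3* was also among the genes that led macrophage sub-cluster 1 and microglia-like cluster 2, which had the highest homeostatic markers. The summed homeostatic markers of cluster 2 stood at 5182 and 3219 CPM, and the part of microglial state in the *Csmd3* ratio was not tested. *Cd46* was among the 3 highest in macrophage-like cells, with an interval that spans 0 (0.42 (−0.66 to 1.70)).

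The complement receptors CR3 and CR4 share a beta chain and moved apart in their alpha chains. *Itgam*, the alpha chain of CR3, which binds cleaved C3, was higher with anti-CD9 Ab in microglia-like cells (433 and 699 CPM, 0.69 (0.62 to 0.76)) and macrophage-like cells (247 and 437 CPM, 0.82 (0.65 to 0.99)). *Itgax*, the alpha chain of CR4, was lower in both (112 and 36.2 CPM, −1.62 (−1.91 to −1.35), and 64.1 and 10.6 CPM, −2.60 (−3.08 to −2.12)). *Itgax* is also one of the damage-associated markers. *Itgb2*, the shared chain, had log2 ratios of −0.06 (−0.19 to 0.07) and −0.24 (−0.40 to −0.08).

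Genes of pathways known to induce *C3*, *C4b* and *Cfb* were read beside them. Of 6 interferon genes, 4 (among them *Irf1*, *Isg15* and *Ifitm3*) were at least 2-fold higher with anti-CD9 Ab in both classes and 0 were lower, with *Irf1* at 92.4 and 205 CPM in microglia-like and 105 and 237 CPM in macrophage-like cells. Of 6 NF-kB and acute-phase genes, 3 were higher in microglia-like cells and 6 in macrophage-like cells, with *Saa3* at 187 and 3805 CPM and 823 and 18858 CPM. T cell-like cells had *Irf1* at 153 and 156 CPM and *Saa3* at 11.9 and 354 CPM. They had *Isg15* at 153 and 212 CPM and *Ifitm3* at 63.8 and 297 CPM. Microglia-like cells had *Isg15* at 59.2 and 143 CPM, below the T cell-like level in both libraries, and *Ifitm3* at 169 and 427 CPM. The part of background in the microglia-like ratios of *Isg15* and *Ifitm3* was not tested. Over all genes 3.63% were higher in microglia-like and 8.27% in macrophage-like cells. Both lists were chosen with earlier results of these data known, so their direction is no independent evidence.

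Over 20 points (the named classes with at least 50 cells, in each library), the genes with the pattern most like each complement gene were found among 7513 genes by Pearson's r of log2(CPM + 10), as a description in which points share libraries and depth. *C1qa* was closest to *C1qc* (r = 0.99) and *C1qb* (r = 0.99), and *C1qb* and *C1qc* were closest to the other chains and *Itgb5*. The closest gene to *C3* was *Fcgr4* (r = 0.94), to *C4b* *Lifr* (r = 0.89), to *Cfb* *Gm56663* (r = 0.91), to *Cfp* *Ifi205* (r = 0.93), to *C3ar1* *Hebp1* (r = 0.95) and to *C5ar1* *Tlr4* (r = 0.95). *Fcgr4*, *Slc31a2* and *Gpr84* were the 3 closest to *C3*, and *Tlr4*, *Fcgr4* and *Csf3r* the 3 closest to *C5ar1*.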

How the data were processed

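The deposited files are count matrices of raw UMI counts per gene and barcode, which the authors made with Cell Ranger; the submitters' processing notes give version 8.0.0 and the build GRCm39. The study's methods name an earlier version and build. Kept cells had 200 to 7500 genes and no more than 2% mitochondrial counts. They were normalized to 10000 counts per cell, integrated by anchors (Seurat 5.3.0 in R 4.3.3, 30 dimensions, 2000 variable genes without the complement genes) and clustered (30 principal components, resolution 0.8); macrophage-like cells were clustered again (20 components, resolution 0.5). A cluster was named where at least 33.3% and at least 3 markers of a class were 2-fold up, unless over 50% of its cells were predicted doublets or its leading genes were those of another class; these limits were set after seeing the clusters. Doublets were marked at 0.8% per 1000 barcodes (10.1% and 11.9% of kept cells) and not removed. UMIs were summed per class and divided by the class total (CPM), and intervals were exact Poisson, binomial or conditional binomial (SciPy 1.17.1). The code of the Poisson and conditional binomial intervals was tested on simulated Poisson counts, which hold no spread between cells or mice. Named genes were the 9 members, the 3 highest and 3 lowest of the wider list in each class, and the 3 most alike genes; a few genes that this rule names are not reported here. Members and lists were chosen with earlier results of these data known, and the C/EBP motif after the sequences were read. The results were computed again under 8 other settings and 3 chosen after seeing the data. Class depth ran from 72434 UMIs (neutrophil-like, control Ab) to 11275598 UMIs (microglia-like, control Ab) among the classes compared.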

Additional observations from a re-analysis of the deposited data

Results flagged for a closer look

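Unnamed cluster 7 was outside the comparisons of named classes and held 28 and 1173 cells, at a median of 757 UMIs in the latter. With anti-CD9 Ab its *C3* level was 166 CPM and its *Cfb* level 218 CPM, against 42.7 and 14.2 CPM with control Ab (from 3 UMIs and 1 UMI). T cell-like cells of the same library had 7.69 and 5.86 CPM. Summed over the 12 macrophage markers, cluster 7 stood at 2821 and 7506 CPM, and over the 12 neutrophil markers at 342 and 4087 CPM.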

How the results depend on the processing

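With 1 library per antibody no replicate could be left out. No paired analysis was possible because each group has 1 sample. C1q was lower with anti-CD9 Ab under each of the 10 alternatives run in microglia-like and in macrophage-like cells. In microglia-like cells its log2 ratio moved outside its counting interval to −0.16 with a limit of 5% mitochondrial counts, −0.17 without integration, −0.17 without predicted doublets, −0.24 with scaling by the median ratio, −0.12 with each cell weighted the same, −0.25 with classes from marker UMIs, and, chosen after seeing the data, −0.19 with the T cell-like level subtracted and −0.16 with clusters weighted as with control Ab. In macrophage-like cells it moved to −0.43 (5% mitochondrial counts), −0.43 (no integration), −0.83 (20 principal components), −0.93 (scaling), −0.74 (marker UMIs) and −0.24 (sub-clusters weighted as with control Ab, chosen after seeing the data); the last holds the mix of sub-clusters fixed by construction, and for the others the cause was not tested. The count of genes at least 2-fold higher in microglia-like cells was 2, and 4 with each cell weighted the same, where *C3* (1.66) and *Cfb* (1.04) joined; it was 3 at 5% mitochondrial counts and with clusters weighted as with control Ab. With classes from marker UMIs it was 2, *C4b* and *C3* (1.05), because *Cfp* (2.07) had fewer than 50 UMIs there. The count in macrophage-like cells was 4, or 3 with the weighted sub-clusters, where *Cfb* (0.88) was below the limit. *C4b* in microglia-like cells ranged from 1.91 to 2.31 and *Cfp* in macrophage-like cells from 2.53 to 3.14. In macrophage-like cells *C3* ranged from 1.12 to 1.53 and *Cfb* from 0.88 to 1.85. There *C3* was 1.12 at 5% mitochondrial counts and 1.15 without integration, and *Cfb* was 1.42 under each of these. *C3* in microglia-like cells ranged from 0.88 to 1.66 and stayed on the same side of 2-fold in 6 of 10 alternatives. *C3ar1* in macrophage-like cells changed direction in 1 of 10 alternatives. Control Ab macrophage-like cells numbered 202, which limits their sub-cluster values.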

Other observations

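*C4b* was also counted in glia that the CD45 sort was not aimed at. Astrocyte-like cells had 82.3 CPM in the control Ab library (63.3 to 105, 64 UMIs) and 211 CPM in the anti-CD9 Ab library (129 to 325, 20 UMIs), a log2 ratio of 1.36 (0.55 to 2.10), and oligodendrocyte-like cells had 64.7 CPM in the control Ab library (45.3 to 89.5, 36 UMIs) and 362 CPM in the anti-CD9 Ab library (258 to 495, 39 UMIs), a ratio of 2.49 (1.79 to 3.18). The classes held 429 and 78 astrocyte-like and 301 and 94 oligodendrocyte-like cells. Summed macrophage markers stood at 326 and 4024 CPM in the former and 1029 and 1421 CPM in the latter, and summed neutrophil markers at 104 and 1749 CPM and 165 and 5138 CPM. Their part in the *C4b* difference was not tested.

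Without integration, the microglia-like cells fell into 4 clusters. One of them, with 49 and 582 cells, had *C4b* among its 10 leading genes, beside *Ccl12*, *Cxcl13*, *Iigp1* and *Cp*, although *C4b* was left out of the clustering. *C4b* stood at 57 CPM (10 UMIs) and 135 CPM (286 UMIs) there.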
